A study of Homo sapiens with 6 samples.

Results

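The proteasome is the protease that breaks down ubiquitin-tagged proteins, and its genes were followed here across 6 RNA-seq libraries of HEK293, an established cell line from human embryonic kidney. Members were the genes of the count table whose symbol starts with PSM, goes on with a letter from A to G and ends in a number, with rows described as pseudogenes left out. This rule found 48 genes of 60564 in the table. They comprised 8 PSMA genes, 8 constitutive PSMB genes, the 3 interferon-inducible genes PSMB8, PSMB9 and PSMB10, 6 PSMC genes, 14 PSMD genes, 4 PSME genes, PSMF1 and 4 PSMG genes. PSMF1 fits the symbol pattern but belongs to none of the other classes.

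The core particle is a barrel in which rings of PSMA subunits guard the entry and rings of PSMB subunits cut the substrate. A regulatory particle caps the barrel, with PSMC subunits as the ATPases that unfold substrates and PSMD subunits as scaffold, ubiquitin receptors and deubiquitinase. PSME proteins are alternative activators, PSMF1 is a regulator first described as an inhibitor, and PSMG proteins are chaperones of core assembly. Under interferon gamma, PSMB8, PSMB9 and PSMB10 replace the catalytic subunits PSMB5, PSMB6 and PSMB7 to form the immunoproteasome, which trims peptides for antigen presentation.

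The groups were HEK293 cells that stably overexpress SFXN2, which encodes the mitochondrial carrier sideroflexin 2 (3 libraries), and wild-type HEK293 cells (WT, 3 libraries). The labels give no treatment for either group, and they do not say which promoter drives SFXN2 or whether the overexpressing line is 1 clone. The sample titles call the groups OE_HA and NC_HA, and what HA and NC stand for was not stated, so whether the WT cells carry a control construct is not known. The labels do not say that replicates were separate cultures, so a p-value here reflects how much these particular libraries differ, and part of that may be technical. Library totals ran between 32121527 and 59963713 counts. SFXN2 stood at 1523, 1909 and 1771 CPM (counts scaled to library size with edgeR's TMM factors) in SFXN2-overexpressing replicates 1, 2 and 3, and at 36.6, 27.8 and 44.7 CPM in WT replicates 1, 2 and 3. All 9 listed genes of embryonic kidney and HEK293 cells were tested, with a summed level of 1010 to 1110 CPM in SFXN2-overexpressing and 985 to 1067 CPM in WT libraries. Most of this sum was VIM, at 733 to 841 CPM in SFXN2-overexpressing and 699 to 806 CPM in WT libraries. The lowest of the 9, PAX2, stood at 4.11 to 5.36 CPM in SFXN2-overexpressing and 4.75 to 6.51 CPM in WT libraries. Markers of blood and immune cells summed to 4.26 to 4.38 CPM in SFXN2-overexpressing and 2.94 to 5.32 CPM in WT libraries, with MS4A1 and TYROBP at 0 in every library. The sums for fibroblast markers were 12.6 to 21.6 CPM in SFXN2-overexpressing and 15.1 to 21.3 CPM in WT libraries. Those for epithelial markers were 78.8 to 85.6 CPM in SFXN2-overexpressing and 68.2 to 84.9 CPM in WT libraries, with KRT14 at 0 throughout. Most of the epithelial sum was EPCAM, at 68.7 to 79.0 CPM in SFXN2-overexpressing and 59.9 to 76.4 CPM in WT libraries.

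WT replicate 2 stood apart from the rest over all tested genes. Its genes lay a median of 0.197 log2 units away from their own mean over 6 libraries, against 0.135 to 0.148 for the other libraries. Mitochondrial transcripts held 8.36% of its counts, and 6.58% to 7.43% of those of the others. The 100 most abundant genes held 23.4% of its counts, and 20.8% to 22.3% in the others, while protein-coding genes held 93.5%, and 94.2% to 94.9% in the others. The counts of members, the medians of classes and lists and the fold changes of the named members are therefore given with and without it.

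With all libraries, no proteasome gene was called different between SFXN2-overexpressing and WT cells. The direction over the members depended on WT replicate 2. Without it, the fitted level was lower in SFXN2-overexpressing cells for 41 of 46 members, against 48.1% of all genes tested in that fit, as given below. Of the 48 members, 46 passed the filter on low counts and were tested, and 0 passed an adjusted p of 0.05 (edgeR quasi-likelihood F-test, Benjamini-Hochberg). Over all 18797 tested genes the share that passed was 0.0106%, that is 2 genes, so a count of 0 does not set the members apart. The smallest adjusted p of a member was 0.93 in that test. No member had an unadjusted p below 0.05 (0 of 46), where 4.76% of all tested genes did. DESeq2 and limma-voom likewise gave 0 members at either threshold. Over all tested genes, 9 passed the adjusted threshold in DESeq2 and 3 in limma-voom. The unadjusted p was below 0.05 for 5.21% of all in DESeq2 and 5.05% in limma-voom. With the replicate number as a block, 0 members passed the adjusted threshold in edgeR, against 0.00532% of all tested genes, and 1 member, PSMA7, had an unadjusted p below 0.05, against 8.32% of all.

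The members' log2 fold changes, SFXN2 overexpression over WT, had a median of 0.03, and 0.01 over all tested genes. They were above 0 for 30 members and below 0 for 16, where 51.2% of all tested genes were above 0. Constitutive here means every member but PSMB8, PSMB9 and PSMB10, so the interferon-inducible PSME1 is included. The 43 tested constitutive members kept within -0.18 to 0.18, with a median of 0.02. Their 95% intervals all lay between -0.58 and 0.55, so a change beyond those bounds falls outside the interval of each of them. The interval stayed within -0.5 to 0.5 for 41 of 46 members, against 44.4% of all tested genes and 76.5% of those with a mean of 10 CPM or more. It stayed within -1 to 1 for 43 members, against 72.6% of all tested genes and 98.2% of those with a mean of 10 CPM or more. The 3 members outside the wider bounds were PSMB8, PSMB9 and PSMB10, the least abundant ones. In bulk RNA, fewer cells that express a gene and less of its RNA per cell cannot be told apart.

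**Figure D1:**
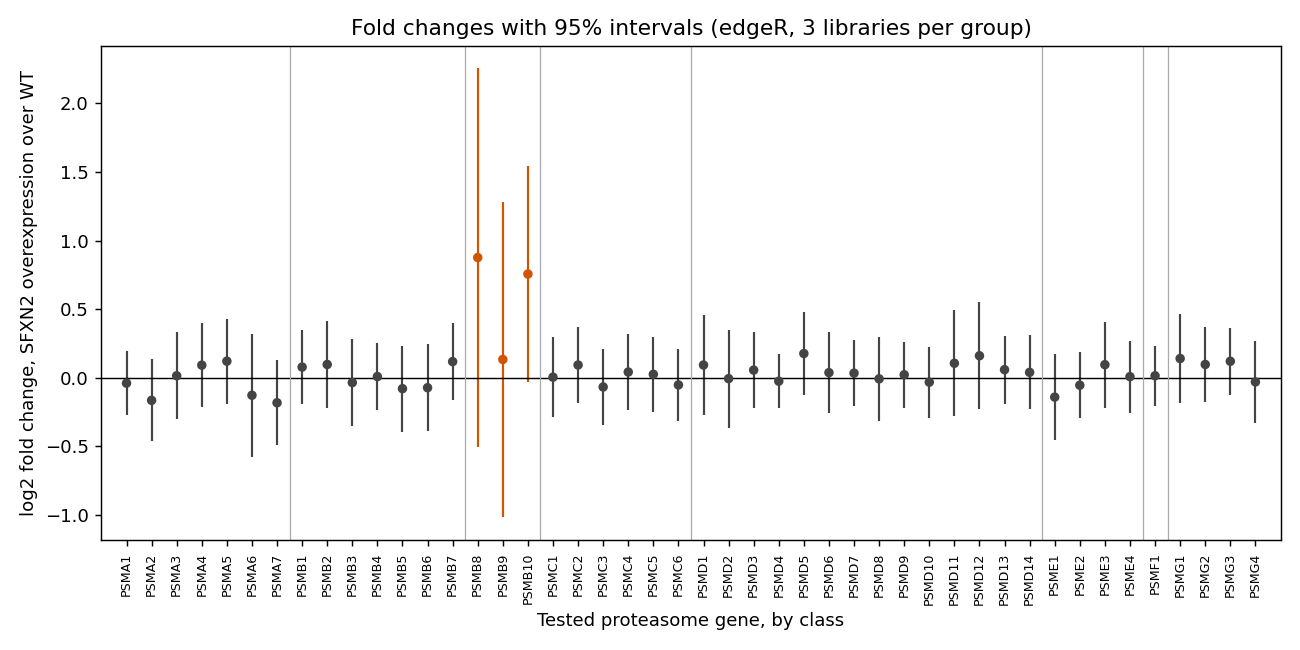
The log2 fold change of each tested proteasome gene (points, SFXN2 overexpression over WT) with its 95% interval (lines), by class along the horizontal axis and with the inducible genes in orange. The 43 constitutive genes sit between -0.18 and 0.18, and the intervals of all 46 genes include 0.

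By class, the median log2 fold change was -0.04 for 7 tested PSMA genes, 0.01 for 7 constitutive PSMB genes, 0.76 for the 3 inducible genes and 0.01 for 6 PSMC genes. It was 0.04 for 14 PSMD genes, -0.02 for 4 PSME genes, 0.01 for PSMF1 and 0.11 for 4 PSMG genes. Without WT replicate 2 these medians were -0.14 for PSMA, -0.08 for constitutive PSMB, 0.79 for the inducible, -0.11 for PSMC and -0.06 for PSMD genes. They were then -0.09 for PSME genes, -0.01 for PSMF1 and -0.01 for PSMG genes. Summed over all 48 members, the level was 6278, 5648 and 6357 CPM in SFXN2-overexpressing replicates 1, 2 and 3, against 6530, 4929 and 6496 CPM in WT replicates 1, 2 and 3. That is 0.609%, 0.587% and 0.648% of all counts in the SFXN2-overexpressing libraries, and 0.642%, 0.492% and 0.641% in the WT libraries. WT replicate 2 was the lowest library and WT replicates 1 and 3 the highest, so the WT values enclosed those of SFXN2-overexpressing cells. The mean sum was 6094 ± 388 CPM in SFXN2-overexpressing and 5985 ± 915 CPM in WT cells (SD, n = 3 each).

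Library by library, the proteasome genes moved together, and most clearly in WT replicate 2. This library held the lowest of the 6 values for 36 of 46 members, all of them constitutive, against 23.3% of all tested genes and 30.5% of those with a mean of 10 CPM or more. It held the highest value for 0 members, while 24.1% of all tested genes were highest there. The 36 comprised 5 of 7 PSMA genes, all 7 constitutive PSMB genes, all 6 PSMC genes, 12 of 14 PSMD genes, 3 of 4 PSME genes and 3 of 4 PSMG genes. The log2 difference between WT replicate 2 and the mean of the other 5 libraries had a median of -0.34 over the members and 0.01 over all tested genes. It ranged between -0.67 for PSMD12 and 0.41 for PSMB8. These differences are a description of 1 library and have no test. The share of mitochondrial and of highly abundant transcripts moved with it, as given above, and their part in the members' values was not tested.

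**Figure D2:**
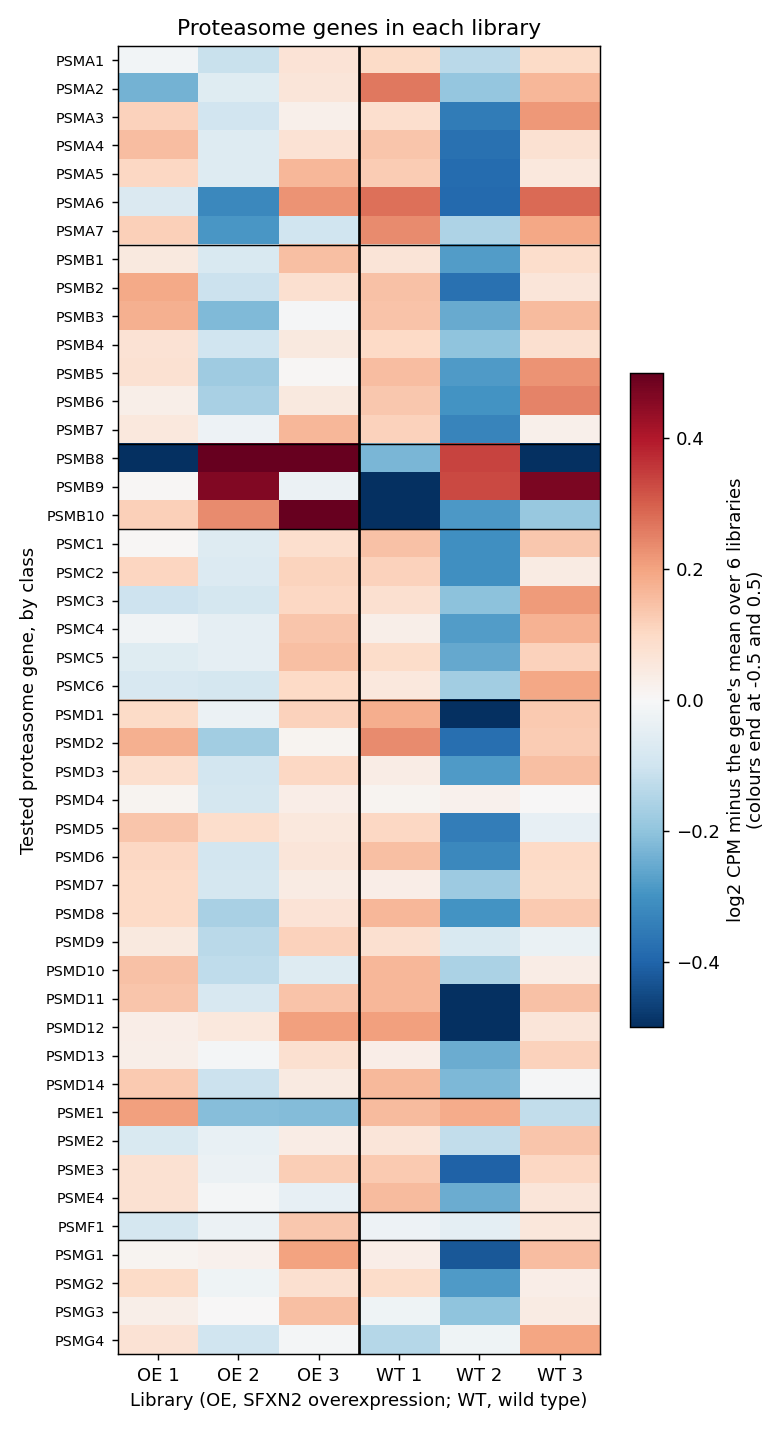
Heat map of the log2 CPM of each tested proteasome gene (rows, by class) in each library (columns, OE for SFXN2 overexpression and WT for wild type), as the difference from the gene's mean over 6 libraries, red above and blue below it. The column of WT replicate 2 is blue for nearly every constitutive gene, and that of SFXN2-overexpressing replicate 2 is pale blue for most.

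SFXN2-overexpressing replicate 2 lay below the members' own means less deeply. There 39 of 46 members were below their own mean over 6 libraries, where 47.4% of all tested genes and 59.9% of those with a mean of 10 CPM or more were. The libraries that share a number therefore gave different pictures. SFXN2-overexpressing cells were above WT for 14 of 46 members between the libraries numbered 1, where 50.2% of all tested genes were, for 41 members between those numbered 2, where 51% were, and for 18 members between those numbered 3, where 51.7% were. The median log2 difference over the members was -0.03, 0.20 and -0.03 in these 3 pairs, in the order of their numbers.

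**Figure D3:**
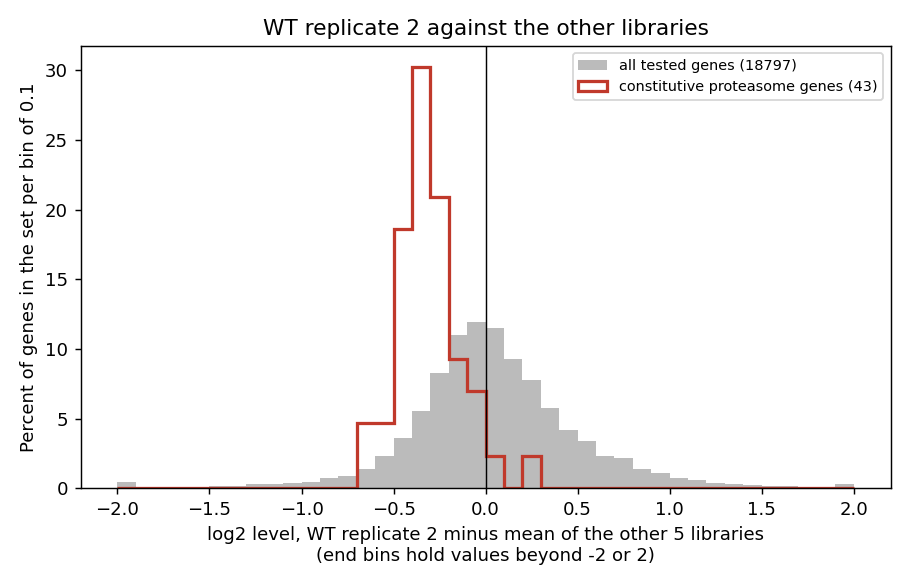
Distribution of the log2 level of WT replicate 2 minus the mean of the other 5 libraries, in bins of 0.1, as the percent of genes in each set: all 18797 tested genes in grey and the 43 constitutive proteasome genes as the red outline. The proteasome genes centre near -0.34, where all tested genes centre near 0.01.

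Without WT replicate 2 the direction over the members was the opposite one. That fit kept SFXN2-overexpressing replicate 2, the library of the same number, where 39 of 46 members lay below their own mean. The log2 fold change was then below 0 for 41 of 46 members, where 48.1% of all 19261 genes tested in that fit were and 57.4% of those with a mean of 10 CPM or more, and the members' median was -0.07. The unadjusted p was below 0.05 for 2 members, PSMA2 and PSMA7, against 4.9% of all tested genes, and 0 members passed the adjusted threshold in edgeR, against 0.0104% of all. The groups of 3 and 2 libraries did not overlap for 13 members. All SFXN2-overexpressing values were lower for 12 of them, against 9.33% of all tested genes, namely PSMA1, PSMA2, PSMA6, PSMA7, PSMB4, PSMB5, PSMB6, PSMC1, PSMD1, PSMD8, PSMD11 and PSME2. They were higher for PSMB10 alone, where 10.9% of all tested genes were higher. With all 6 libraries the groups did not overlap for 1 member, PSMB10, which was higher (4.91% of all tested genes), and for 0 members in the lower direction (4.25% of all tested genes). No fit left out both libraries numbered 2.

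Levels can be compared between genes per length of annotated exon. On that scale the tested members covered a wide range, from 185 CPM per kb for PSMB4 and 182 for PSMB3 to 0.411 for PSMB8. The class medians were 60.6 CPM per kb for PSMA, 124 for constitutive PSMB, 76.1 for PSMC, 57.7 for PSMD and 31.2 for PSME genes. Those of the assembly chaperones and of the inducible subunits were lower, at 16.2 CPM per kb for PSMG genes and 0.510 for PSMB8, PSMB9 and PSMB10. Within the 14 PSMD genes the highest, PSMD4, stood 20.2-fold above the lowest, PSMD5. Among the 6 PSMC genes, whose proteins form 1 ring in equal numbers, PSMC4 stood 5.53-fold above PSMC1, whose level is uncertain for reasons given below. The length used decides part of this order. With the length of the principal transcript, an alternative chosen after seeing the data, PSME3 moved from 62.5 to 282 CPM per kb and became the highest member. PSMG4, the lowest tested constitutive member at 3.31, moved to 23.0, and its counts are uncertain for a reason given below.

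**Figure D4:**
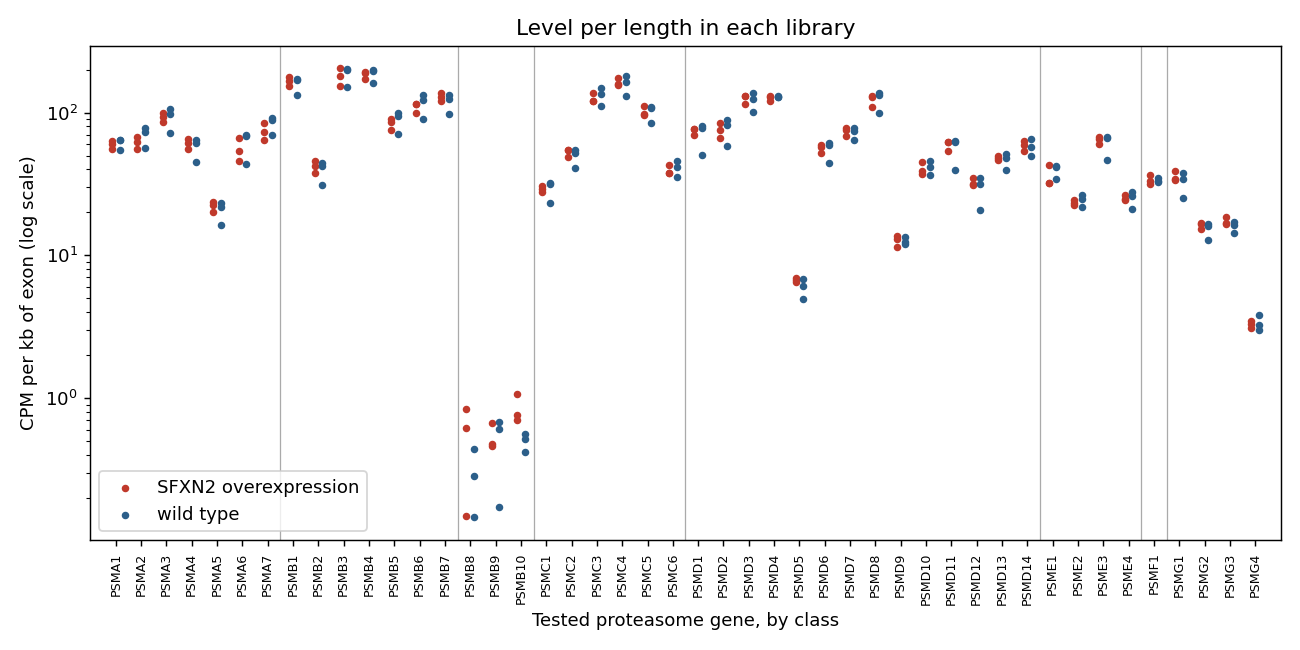
Level of each tested proteasome gene in CPM per kb of exon on a log scale, with 1 point per library, SFXN2 overexpression in red on the left and WT in blue on the right of each gene. The points of the inducible genes PSMB8, PSMB9 and PSMB10 lie near or below 1, and PSMG4, the lowest tested constitutive gene, averages 3.31.

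PSMA genes encode the outer rings of the core. PSMA7, the member of this class with the smallest unadjusted p, stood at 133, 100 and 114 CPM in SFXN2-overexpressing replicates 1, 2 and 3, against 144, 110 and 140 CPM in WT replicates 1, 2 and 3. PSMA2 stood at 82.1, 92.6 and 101 CPM in SFXN2-overexpressing replicates, against 116, 84.6 and 109 CPM in WT replicates. Both were highest in WT replicate 1, and the groups overlapped. On the log2 scale PSMA7 had a fold change of -0.18 (SE 0.14, 95% interval -0.49 to 0.13) and PSMA2 one of -0.16 (SE 0.13, 95% interval -0.46 to 0.13). Without WT replicate 2 these were -0.30 for PSMA7 and -0.29 for PSMA2, and over all left-out libraries they ranged from -0.30 to -0.09 for PSMA7 and from -0.29 to -0.08 for PSMA2. PSMA8, the alpha subunit of testis, had 0 counts in all 6 libraries, which allows up to 0.0491 to 0.0950 CPM per library at a limit of 3 counts. PSMA6 shares 919 bases of exon on the same strand with another gene model, ENSG00000258790, which held 11410 counts over the 6 libraries against 21731 for PSMA6, so its counts are uncertain.

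The catalytic sites of the constitutive core belong to PSMB5, PSMB6 and PSMB7. PSMB5, the chymotrypsin-like subunit, stood at 132, 110 and 126 CPM in SFXN2-overexpressing replicates 1, 2 and 3, against 139, 103 and 146 CPM in WT replicates 1, 2 and 3. PSMB6, the caspase-like subunit, stood at 99.4, 86.9 and 101 CPM in SFXN2-overexpressing replicates, against 107, 79.2 and 116 CPM in WT replicates. PSMB7, the trypsin-like subunit, stood at 125, 119 and 135 CPM in SFXN2-overexpressing replicates, against 131, 96.0 and 123 CPM in WT replicates. For all 3 genes WT replicate 2 was the lowest library and the groups overlapped. The log2 fold changes were -0.08 for PSMB5 (SE 0.14), -0.07 for PSMB6 (SE 0.14) and 0.12 for PSMB7 (SE 0.13). Without WT replicate 2 they were -0.22 for PSMB5, -0.22 for PSMB6 and -0.01 for PSMB7. PSMB4, a structural beta subunit, was the most abundant member per length of annotated exon, though not per length of the principal transcript. It stood at 187, 166 and 184 CPM in SFXN2-overexpressing replicates, against 191, 155 and 188 CPM in WT replicates. Its log2 fold change was 0.01 (SE 0.11), and -0.08 without WT replicate 2. PSMB11, the beta subunit of thymic cortical epithelium, had 0, 3 and 5 counts in SFXN2-overexpressing replicates and 0 in each WT replicate, and it was not tested.

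The inducible subunits were the least abundant tested members, and their values carry few reads. PSMB10 (chr16:67934502-67937087 in GRCh38, minus strand) stood at 0.850, 0.927 and 1.29 CPM in SFXN2-overexpressing replicates 1, 2 and 3, against 0.506, 0.632 and 0.679 CPM in WT replicates 1, 2 and 3. These levels rest on 33, 51 and 79 counts in SFXN2-overexpressing and 16, 26 and 24 counts in WT libraries. Each SFXN2-overexpressing library was above each WT library. Its log2 fold change of 0.76, with an SE of 0.35 and a 95% interval of -0.03 to 1.55, did not pass (edgeR quasi-likelihood F-test, unadjusted p = 0.0588, Benjamini-Hochberg adjusted p = 0.93). It was 0.79 without WT replicate 2. PSMB10 shares 644 bases of exon on its own strand with the gene model AC040162.1, which held 953 counts over the 6 libraries against 229 for PSMB10. That model had 4.30, 3.78 and 3.00 counts per PSMB10 count in SFXN2-overexpressing replicates, and 8.25, 2.42 and 7.75 in WT replicates, so the ratio between the models differed among libraries and the counts of PSMB10 are uncertain.

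PSMB8 (chr6:32840717-32844703 in GRCh38, minus strand) had 9, 71 and 58 counts in SFXN2-overexpressing replicates 1, 2 and 3, against 14, 28 and 8 counts in WT replicates 1, 2 and 3. The corresponding levels were 0.232, 1.29 and 0.949 CPM in SFXN2-overexpressing and 0.443, 0.680 and 0.226 CPM in WT libraries. SFXN2-overexpressing replicates 2 and 3 were the highest libraries, but replicate 1 was close to the lowest, so the groups overlapped. The log2 fold change of 0.88, the largest of any tested member with all 6 libraries, had an SE of 0.62 and a 95% interval of -0.50 to 2.25. It was 0.40 without SFXN2-overexpressing replicate 2 and 0.56 without WT replicate 3, below the 0.82 and 0.84 of PSMB10 in those fits. It was 1.32 without WT replicate 2 and 1.30 without SFXN2-overexpressing replicate 1. PSMB9 (chr6:32844136-32859585 in GRCh38, plus strand) had 17, 34 and 26 counts in SFXN2-overexpressing replicates, against 5, 23 and 22 counts in WT replicates. Its levels of 0.438, 0.618 and 0.425 CPM in SFXN2-overexpressing and 0.158, 0.559 and 0.622 CPM in WT libraries overlapped, with a log2 fold change of 0.13 (SE 0.51), and of 0.32 without WT replicate 2. Exons of PSMB8 and PSMB9 overlap by 139 bases on opposite strands, and the library kit does not mark strand, so reads there cannot be assigned.

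Per length, each inducible subunit stood at around 1% or less of the constitutive subunit that it replaces. PSMB8 reached 0.166%, 1.10% and 0.715% of PSMB5 in SFXN2-overexpressing replicates 1, 2 and 3, against 0.301%, 0.625% and 0.146% in WT replicates 1, 2 and 3. The ratio averaged 0.497 ± 0.153% in SFXN2-overexpressing and 0.439 ± 0.271% in WT cells for PSMB9 to PSMB6 (SD, n = 3 each). For PSMB10 to PSMB7 it averaged 0.648 ± 0.113% in SFXN2-overexpressing and 0.428 ± 0.110% in WT cells (SD, n = 3 each).

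**Figure D5:**
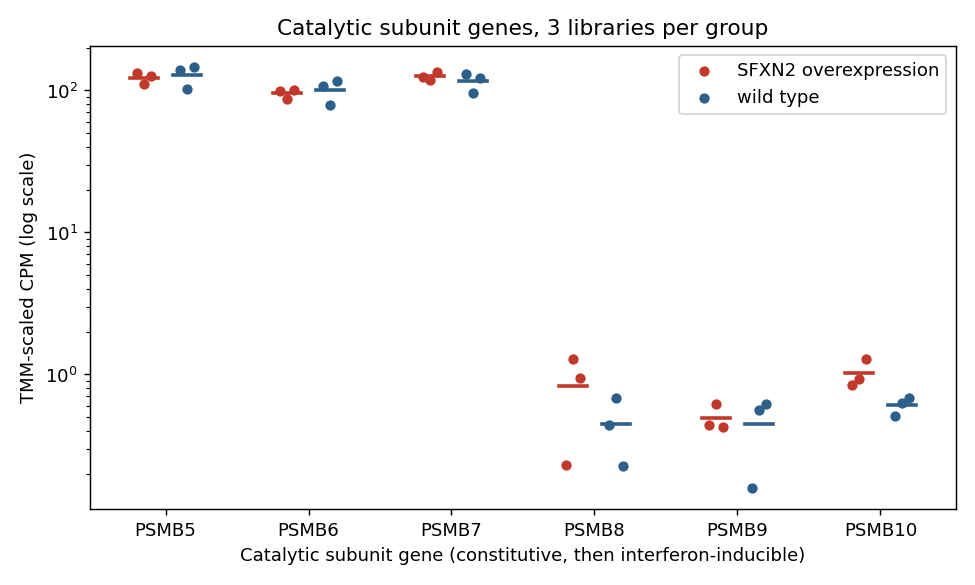
TMM-scaled CPM on a log scale of the constitutive catalytic subunit genes PSMB5, PSMB6 and PSMB7 and of the inducible PSMB8, PSMB9 and PSMB10, with 1 point per library and a bar at the group mean, SFXN2 overexpression in red on the left and WT in blue on the right. Constitutive genes lie between 79.2 and 146 CPM and inducible genes between 0.158 and 1.29 CPM.

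The promoter windows of PSMB8 and PSMB10 are shown because these genes had the largest fitted fold changes, and because both carry the letters of an interferon-stimulated response element, the class of site through which interferon factors act on such genes. Each window is read 5′ to 3′ on the gene's strand from RefSeq on GRCh38.p14, with 250 bases before and 50 after the transcript start, at chr6:32843998-32844297 (minus strand) for PSMB8 and chr16:67936801-67937100 (minus strand) for PSMB10. Capitals mark a match on either strand to its core letters, TTTC and TTTC with a pair of any bases between them.
PSMB8: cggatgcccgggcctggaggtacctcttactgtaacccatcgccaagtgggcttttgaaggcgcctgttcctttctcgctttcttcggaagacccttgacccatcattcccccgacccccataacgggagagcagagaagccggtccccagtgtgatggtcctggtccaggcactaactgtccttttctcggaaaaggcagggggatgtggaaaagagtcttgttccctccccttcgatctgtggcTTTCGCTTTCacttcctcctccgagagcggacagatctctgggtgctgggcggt
PSMB10: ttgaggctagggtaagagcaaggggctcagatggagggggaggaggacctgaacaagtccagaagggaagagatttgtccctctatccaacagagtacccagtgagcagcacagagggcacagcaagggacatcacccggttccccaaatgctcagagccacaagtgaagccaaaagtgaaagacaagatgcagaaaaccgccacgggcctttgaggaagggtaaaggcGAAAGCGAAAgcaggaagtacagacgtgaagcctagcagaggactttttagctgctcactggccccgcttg
The match starts at position -4 from the transcript start in PSMB8 and at position -21 in PSMB10, where it is read on the opposite strand. PSMB8 has 2 windows, and the printed window was picked for its matches, since the other lacks this core. The window of PSMB9, the remaining inducible gene, lacks this core too. Whether these sites had a part in the levels of PSMB8 and PSMB10 was not tested.

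PSMC genes encode the ring of ATPases that unfolds substrates. PSMC2, the member of this class with the smallest unadjusted p, stood at 168, 148 and 168 CPM in SFXN2-overexpressing replicates 1, 2 and 3, against 168, 126 and 160 CPM in WT replicates 1, 2 and 3. WT replicate 2 was the lowest library and the others overlapped, with a log2 fold change of 0.09 (SE 0.12), and of -0.03 without that library. All 6 PSMC genes were lowest in WT replicate 2, and their fold changes ran between -0.07 and 0.09 on the log2 scale. PSMC1 has a near-copy in the table, the pseudogene PSMC1P1, which held 20.9% to 22.5% of their joint counts in every library. Reads may be split between these copies. PSMC1 also shares 4671 bases of exon with NRDE2 on the opposite strand, and the library kit does not mark strand. NRDE2 held 15267 counts over the 6 libraries, against 33795 for PSMC1. For both reasons the level of PSMC1 is uncertain. PSMC5 shares 874 bases of exon with FTSJ3 on the opposite strand. FTSJ3 held 54697 counts against 54734 for PSMC5, so the level of PSMC5 is uncertain too. Of 30 pseudogene rows with the symbol pattern of the family, 11 had any count, and PSMC1P1 held 97.7% of their counts.

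PSMD genes encode the base scaffold and the lid of the regulatory particle, together with chaperones that help to assemble the base. PSMD5, an assembly chaperone of the base and the member of this class with the smallest unadjusted p, stood at 23.9, 23.1 and 22.6 CPM in SFXN2-overexpressing replicates 1, 2 and 3, against 23.4, 17.1 and 21.1 CPM in WT replicates 1, 2 and 3. WT replicate 2 was again the lowest library, and PSMD5 had a log2 fold change of 0.18 (SE 0.14, 95% interval -0.13 to 0.48). Without that library it was 0.06. The deepest drops in WT replicate 2 were those of 3 PSMD genes, named here after their values were seen. PSMD12, a lid subunit, stood at 136, 138 and 154 CPM in SFXN2-overexpressing replicates, against 154, 90.8 and 139 CPM in WT replicates. PSMD11, another lid subunit, stood at 262, 226 and 264 CPM in SFXN2-overexpressing replicates, against 268, 167 and 264 CPM in WT replicates. PSMD1, a large scaffold subunit of the base, stood at 255, 234 and 258 CPM in SFXN2-overexpressing replicates, against 271, 169 and 261 CPM in WT replicates. In WT replicate 2 these genes were at 62.9% (PSMD12), 64.9% (PSMD11) and 66.1% (PSMD1) of the mean of the other 5 libraries, while the other WT libraries lay within or above the range of the SFXN2-overexpressing ones. Not every PSMD gene took part. PSMD4, a ubiquitin receptor, stood at 176, 164 and 178 CPM in SFXN2-overexpressing replicates, against 176, 177 and 175 CPM in WT replicates, so that WT replicate 2 was at 102% of the others.

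The windows of PSMD12 and PSMD11 are shown because these genes dropped most in WT replicate 2, and because they differ in the core letters of the antioxidant response element, the kind of site bound by NFE2L1, the factor that raises proteasome genes when the protease is inhibited. They lie at chr17:67366528-67366827 (minus strand) for PSMD12 and chr17:32444260-32444559 (plus strand) for PSMD11, in the same build and layout as above. Capitals mark a match to TGACNNNGC.
PSMD12: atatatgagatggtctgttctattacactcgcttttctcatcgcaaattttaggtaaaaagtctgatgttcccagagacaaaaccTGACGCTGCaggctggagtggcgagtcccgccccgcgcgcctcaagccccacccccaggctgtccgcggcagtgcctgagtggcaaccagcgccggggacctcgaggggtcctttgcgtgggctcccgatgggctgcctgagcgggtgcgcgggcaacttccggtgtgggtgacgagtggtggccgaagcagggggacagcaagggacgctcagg
PSMD11: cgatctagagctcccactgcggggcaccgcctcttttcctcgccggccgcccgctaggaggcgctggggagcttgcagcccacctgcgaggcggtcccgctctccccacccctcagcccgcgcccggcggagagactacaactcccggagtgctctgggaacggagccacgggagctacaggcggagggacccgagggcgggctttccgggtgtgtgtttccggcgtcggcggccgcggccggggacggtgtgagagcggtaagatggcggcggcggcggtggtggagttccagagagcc
The match in PSMD12 starts at position -165 from the transcript start, and the PSMD11 window holds these letters on neither strand. PSMD1, with the next deepest drop, has a window that is not shown, with a match starting at position 40.

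PSME genes encode activators that dock on the core in place of the ATPase cap. PSME1, an interferon-inducible activator subunit, stood at 52.2, 39.1 and 39.0 CPM in SFXN2-overexpressing replicates 1, 2 and 3, against 50.5, 51.5 and 41.5 CPM in WT replicates 1, 2 and 3. Its partner PSME2 stood at 33.7, 34.6 and 36.5 CPM in SFXN2-overexpressing replicates, against 37.1, 32.6 and 39.1 CPM in WT replicates. The groups overlapped for both, and WT replicate 2 was the lowest library for PSME2 but at 116% of the mean of the others for PSME1. The log2 fold changes were -0.14 (SE 0.14) for PSME1 and -0.05 (SE 0.11) for PSME2. Without WT replicate 2 they were -0.09 for PSME1 and -0.13 for PSME2, and that of PSME1 was -0.30 without SFXN2-overexpressing replicate 1.

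The window of PSME1 (chr14:24135944-24136243, plus strand, same build and layout) is shown because of this gene's rank in WT replicate 2. Among tested members other than PSMB8, PSMB9 and PSMB10, it stood highest there relative to the other libraries. The others above their mean there were PSMD4, PSMB8 and PSMB9. The PSME1 window holds the letters of both motifs, TGACNNNGC and the interferon-stimulated core, in capitals.
PSME1: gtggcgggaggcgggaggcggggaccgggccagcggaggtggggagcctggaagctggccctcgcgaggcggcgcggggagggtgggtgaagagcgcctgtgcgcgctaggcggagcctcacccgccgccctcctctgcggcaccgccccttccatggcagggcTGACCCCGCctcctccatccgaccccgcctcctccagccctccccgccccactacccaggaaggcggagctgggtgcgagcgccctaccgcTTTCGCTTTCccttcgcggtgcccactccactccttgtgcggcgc
Its first match starts at position -86 and its second at position 6 from the transcript start. The second reads the same letters as the match of PSMB8 shown above.

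PSME3, a nuclear activator, stood at 294, 273 and 304 CPM in SFXN2-overexpressing replicates 1, 2 and 3, against 305, 211 and 300 CPM in WT replicates 1, 2 and 3. PSME4, an activator with roles in chromatin and spermatogenesis, stood at 187, 176 and 172 CPM in SFXN2-overexpressing replicates, against 198, 149 and 185 CPM in WT replicates. Both had their lowest value in WT replicate 2 and overlapping groups, with log2 fold changes of 0.10 (SE 0.14) for PSME3 and 0.01 (SE 0.12) for PSME4. Without that library they were -0.06 for PSME3 and -0.10 for PSME4. PSMF1 stood at 140, 146 and 163 CPM in SFXN2-overexpressing replicates, against 146, 144 and 155 CPM in WT replicates, with a log2 fold change of 0.01 (SE 0.10), and of -0.01 without WT replicate 2. In WT replicate 2 it was at 95.8% of the mean of the others, so this regulator was among the members that moved least there.

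PSMG genes encode the chaperones that pair up to build the alpha ring. PSMG3, the member of this class with the smallest unadjusted p, stood at 33.2, 32.6 and 36.2 CPM in SFXN2-overexpressing replicates 1, 2 and 3, against 32.1, 28.3 and 33.5 CPM in WT replicates 1, 2 and 3. The groups overlapped, with a log2 fold change of 0.12 (SE 0.11), and of 0.05 without WT replicate 2. PSMG1 and PSMG2 were also lowest in WT replicate 2, at 70.2% and 79.1% of the mean of the other libraries, while PSMG4 was at 98.0%. The fold changes of these 4 genes ran between -0.03 and 0.14 on the log2 scale. PSMG4 shares 1388 bases of exon with SLC22A23 and 174 with TUBB2B, both on the opposite strand. SLC22A23 held 16549 counts and TUBB2B 50340 over all libraries, against 5047 for PSMG4. Since the library kit does not mark strand, the counts of PSMG4 are uncertain.

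The members lie on 17 chromosomes. Promoter windows were in the RefSeq table for 42 members, in 51 windows of 300 bases, and 4 motifs were searched on both strands, with overlaps between matches of different motifs kept. TGACNNNGC was in 15 windows (29.4%), against 13.3% of all 35114 windows of that length in the table. The core of the interferon-stimulated response element was in 7 windows (13.7%), against 3.57% of all, and belonged to PSMA4, PSMB4, PSMB8, PSMB10, PSME1, PSME2 and PSMG4. CCAAT was in 39.2% of member windows and in 34.6% of all windows. TTCNNNGAA, the core letters of a STAT site, was in 15.7% of member windows and in 7.66% of all. A match describes letters only. The constitutive members with TGACNNNGC (14) and those without it (23) had the same median difference in WT replicate 2, -0.34 on the log2 scale. That median was -0.15 for the 5 with the interferon-stimulated core and -0.34 for the 32 without it. It was -0.35 with CCAAT (18) and -0.30 without (19), and -0.34 with TTCNNNGAA (6) and -0.31 without (31). The median log2 fold change, SFXN2 overexpression over WT, was -0.03 for constitutive members with the interferon-stimulated core and 0.03 for those without it. It was 0.05 with TGACNNNGC and 0.01 without, 0.04 with CCAAT and 0.01 without, and 0.02 both with and without TTCNNNGAA.

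Other genes around the proteasome were read from 4 lists, and 0 genes of any list passed the adjusted threshold in edgeR (0.0106% of all tested genes), and 0 had an unadjusted p below 0.05 (4.76% of all). With the replicate block, 0 passed the adjusted threshold, and the unadjusted p was below 0.05 for 2 of 14 assembly factors, 3 of 16 NRF1 genes, 0 of 17 ubiquitin genes and 1 of 19 antigen presentation genes, against 8.32% of all. Without WT replicate 2 this held for 2, 1, 0 and 0 genes of these lists, against 4.9% of all, with 0 called. The list of assembly, regulation and interacting factors (14 of 14 tested) had a median log2 fold change of 0.10, and 0.07 without WT replicate 2. In that list 9 genes were lowest in WT replicate 2. The share lowest there was 23.3% over all tested genes and 30.5% over those with a mean of 10 CPM or more. These shares also stand beside the counts of the lists below. POMP, the maturation factor of the core, stood at 61.8, 54.2 and 61.0 CPM in SFXN2-overexpressing replicates 1, 2 and 3, against 66.0, 37.2 and 59.9 CPM in WT replicates 1, 2 and 3. In WT replicate 2 it was thus at 61.3% of the others, a drop of the size seen for PSMD12. ZFAND2A, an arsenite-inducible proteasome-associated protein, had the smallest unadjusted p of this list, with a log2 fold change of 0.43 (SE 0.19, edgeR quasi-likelihood F-test, unadjusted p = 0.0501, Benjamini-Hochberg adjusted p = 0.93).

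The list of NRF1 processing and proteasome transcription, in which NRF1 is the protein of NFE2L1, had 16 of 16 genes tested, a median log2 fold change of 0.04 (-0.0089 without WT replicate 2) and 8 genes lowest in WT replicate 2. NFE2L1 itself stood at 282, 271 and 279 CPM in SFXN2-overexpressing replicates 1, 2 and 3, against 297, 278 and 280 CPM in WT replicates 1, 2 and 3. Its transcript in WT replicate 2 was therefore at 98.7% of the mean of the other libraries, where most of the proteasome genes were lower. Of the processing genes in this list, VCP was at 75.0%, DDI2 at 79.3% and NGLY1 at 93.1% there. SYVN1 was at 108% and SEL1L at 114%. The activity of the NRF1 protein was not measured, and its part in the members' values was not tested. MAFF, a small partner of factors such as NRF1, was low in every library, with 0.644, 3.02 and 2.47 CPM in SFXN2-overexpressing replicates and 0.633, 1.31 and 0.792 CPM in WT replicates. Its log2 fold change was 1.16 (SE 0.53), and 1.52 without WT replicate 2, and the groups overlapped.

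The list of ubiquitin delivery (17 of 17 tested) had a median log2 fold change of 0.06 (0.0010 without WT replicate 2), with 7 genes lowest in WT replicate 2. FAF2, an adaptor that recruits the unfoldase VCP to the endoplasmic reticulum, had its smallest unadjusted p, with a log2 fold change of 0.14 (SE 0.09). The partners of the immunoproteasome in antigen presentation and interferon gamma signalling (19 of 19 tested) had a median of 0.0039 on the same scale (-0.0055 without WT replicate 2). Of these, 6 were lowest in WT replicate 2, against 30.5% of tested genes with a mean of 10 CPM or more. TAP1, the peptide transporter gene that lies within the annotated span of PSMB9 on the opposite strand, stood at 37.8, 34.7 and 29.3 CPM in SFXN2-overexpressing replicates 1, 2 and 3, against 37.6, 36.2 and 37.2 CPM in WT replicates 1, 2 and 3, far above PSMB9 in every library.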

How the data were processed

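RNA from 3 SFXN2-overexpressing and 3 WT HEK293 samples went into TruSeq v2 libraries after removal of ribosomal RNA, per the labels' protocols. The submitters' processing notes name Trim Galore 0.4.4 and the build hg38. The aligner, counting tool and annotation were not given in the sources used here. For 60564 genes the authors deposited raw counts, per the file headers. They also deposited log2 values for 35778 genes, which equal log2 of the count over a constant per library, plus 1.

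Counts were tested with edgeR 4.0.16 in R 4.3.3 (TMM factors, a filterByExpr minimum of 10 counts, robust quasi-likelihood F-test, group as the only term, Benjamini-Hochberg adjustment over all 18797 tested genes, threshold 0.05). CPM values are TMM-scaled, and log2 levels per library used a prior count of 2. On data simulated for this comparison (18369 genes), 74% of changes of 1 log2 unit and 95% of those of 2 units were recovered, with 17 false calls. These shares were not split by level. Recovery at the low levels of PSMB8, PSMB9 and PSMB10 was not tested. The median SE was 0.17. Limits of 3 counts and 95% intervals cover counting error or library spread only. Exon lengths and positions came from GENCODE 29, matched by ID for all 48 members, and promoter windows from RefSeq (GRCh38.p14). Exons of 23 members overlap another gene.

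Same-numbered libraries deviated together from their group means (correlations 0.24, 0.33 and 0.19). The numbers were therefore taken as pairs in the replicate-block fit and in the comparison of same-numbered libraries, from the data and not from the labels. The main fit did not use these pairs, so its SEs, intervals and p-values are unpaired. All pairs of libraries differed by more than counting noise, with a chi-square of at least 13.7 per degree of freedom.

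Members and lists were chosen with earlier results of these data known. Named members were the catalytic, inducible, tissue-restricted and regulator genes, the smallest p of each class, the 5 largest fold changes, members whose groups did not overlap and the extremes of level per length. From each list the smallest p, POMP, NFE2L1 and TAP1 were named. A gene that this rule names is not reported here. Other settings were other scalings and filters, DESeq2 1.42.0, limma-voom, limma 3.58.1 on the log2 table, a replicate block, and leaving out each library.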

Additional observations from a re-analysis of the deposited data

How the results depend on the processing

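No proteasome gene passed the adjusted threshold under any setting (0 in each), and the lowest adjusted p of a named member in any of them was 0.37. Over all genes, DESeq2 called 9 genes, against 2 by edgeR, and the fit with the replicate block, which takes the pairing of numbered libraries into account, called 1 gene (0.00532%). The block left 1 member with an unadjusted p below 0.05, PSMA7, and changed no call of a member. The groups did not overlap for 2 members under library size alone, against 9.21% of all tested genes, and for 0 members under a filter of 1 CPM in 3 samples, against 9.32%, which does not keep the inducible genes. The members' median log2 fold change was 0.02 to 0.06 under the other scalings, filters and tools.

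Fits that leave out 1 library each gave 1 to 3 called genes over all, 0 to 3 members with an unadjusted p below 0.05 (1.59% to 11.8% of all genes tested), 1 to 13 members whose groups did not overlap (13% to 31.3% of all) and a median of -0.07 to 0.09, with the lowest median and the 13 (20.3% of all genes) without WT replicate 2 and the 3 members (11.8% of all) without SFXN2-overexpressing replicate 1. Of 102 fold changes of named members so obtained, 16 changed sign, and of 133 under the other settings 0 did. The changing ones ranged from -0.083 to 0.056 for PSMB4, -0.22 to 0.017 for PSMB5, -0.22 to 0.040 for PSMB6, -0.0057 to 0.20 for PSMB7, -0.26 to 0.43 for PSMB9 and -0.026 to 0.17 for PSMC2. They ranged from -0.13 to 0.0026 for PSME2, -0.059 to 0.18 for PSME3, -0.10 to 0.086 for PSME4 and -0.059 to 0.058 for PSMF1. The cause was not tested. Depth limits the inducible genes, whose values rest on 5 to 79 counts per library, and PSMA8 and PSMB11, with at most 5 counts, could not be tested.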
